A study of Mus musculus and Homo sapiens with 12 samples.

Results

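HERVH is a human endogenous retrovirus of the ERV1 family, and its copies were followed here in caRNA, meaning RNA recovered in the chromatin fraction of nuclei, of K-562 cells. The members are all rows of the hg38 repeat table whose subfamily is HERVH-int, LTR7, LTR7A, LTR7B, LTR7C or LTR7Y. This gave 5218 of 3919868 annotated elements, of which 1392 were HERVH-int, 2409 LTR7, 845 LTR7B, 317 LTR7C and 255 LTR7Y. No row carried the name LTR7A. Counts in any library were found on 1778 of the 5218 elements, against 315791 elements with counts in the whole table.

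K-562 is a chronic myeloid leukaemia line, labelled as lymphoblast cells from bone marrow. RNA was precipitated with an antibody against 5-methylcytosine (m5C) and sequenced, a procedure called m5C meRIP–seq, in 3 libraries of wild-type (WT) cells and 3 libraries of cells with a knockout (KO) of TET2, an enzyme that oxidises methylated cytosine. One culture medium is given for both groups and no drug or siRNA is named in the labels of these libraries. The study names WT and KO K-562 cells that were gifts, and also WT K-562 cells from the American Type Culture Collection. Which WT stock gave these libraries, and how many KO clones were used, is not given in the sources used here. The cell line field of the KO libraries reads K563, whereas their titles name K562. The study describes its replicates as biological, but the labels do not say whether these libraries came from separate cultures, so p-values measure the spread between these samples, which may be technical. The table holds repeat elements and no genes, so neither the loss of TET2 nor the cell type could be checked in it. It holds no input libraries either, so how much RNA there was and how strongly it was precipitated cannot be told apart, and every difference is measured against the remaining repeats.

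A complete HERVH provirus has an internal part, HERVH-int, with remnants of retroviral genes, between 2 long terminal repeats (LTRs) of an LTR7 type. The LTR carries the promoter and the site where transcripts end, and many copies survive as solitary LTRs without an internal part. HERVH RNA is best known from human pluripotent stem cells and the early embryo, where LTR7 and LTR7Y copies drive lncRNAs and chimeric transcripts. The H in the name stands for histidine, whose tRNA was the presumed primer of reverse transcription.

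The following stretches of the hg38 reference, on the strand of the element, show the promoter end of 2 LTR7C elements. They lie on either side of the most steadily counted internal part, whose values are given below. Each runs from 40 bases before TATAAA, the TATA box sequence, to the 3′ end of the LTR. Capitals mark TATAAA, or the bases that align with it where the LTR does not hold it, and AATAAA, the polyadenylation signal, where present.
LTR7C, chr6:67880996-67881155, minus strand: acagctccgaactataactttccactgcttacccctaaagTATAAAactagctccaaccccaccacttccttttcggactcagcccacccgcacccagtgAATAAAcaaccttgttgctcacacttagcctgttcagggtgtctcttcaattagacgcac
LTR7C, chr6:67889062-67889240, minus strand: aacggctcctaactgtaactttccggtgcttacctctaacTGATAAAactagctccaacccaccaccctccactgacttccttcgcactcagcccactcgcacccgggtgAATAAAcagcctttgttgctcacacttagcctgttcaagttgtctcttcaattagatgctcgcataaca
Over their full length these 2 LTR7C elements were 79.4% identical, whereas the 2 LTR7Y elements that flank a provirus on chr22 were 96.6% identical. TATAAA was present on the element strand in the central 300 bases of 88.4% of 2312 LTR7, 91.4% of 198 LTR7Y and 74.6% of 295 LTR7C elements of at least that length, but in 1.45% of 691 LTR7B elements. The share in 27413 other LTR-class elements with counts was 15.1%. On the opposite strand, TATAAA was found in 0.389% of LTR7, 1.52% of LTR7Y, 0% of LTR7C and 13.0% of LTR7B windows, against 11.8% of the others. Where present in an LTR with a complete 5′ end, it began at a median of base 278 in LTR7, 299 in LTR7Y and 305 in LTR7C. AATAAA, which can overlap the last bases of TATAAA, was found in these central windows in 31.4% of LTR7, 5.56% of LTR7Y, 17.5% of LTR7B and 16.3% of LTR7C elements, against 19.0% of the others, and on the opposite strand in 12.2%, 2.02%, 5.07% and 2.71%, against 9.05%. Both strands of these windows were searched. Over the whole LTR, on the element strand, AATAAA was found in 1314 of 2189 LTR7, 181 of 193 LTR7Y, 489 of 597 LTR7B and 107 of 229 LTR7C elements. These had a complete 5′ end and at least 300 bases. It first began at a median of base 350, 370, 368 and 375, so the central windows can end before it. The other LTR-class elements were not searched over their whole length. These are matches of letters, not tests of promoter use.

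HERVH-int starts with the primer binding site, whose first bases are TGGTGC. This motif began at base 3 in 908 of 1011 HERVH-int elements with a complete 5′ end, which is 89.8%. In the first 60 bases of other LTR-class elements with counts it was found in 1.74% on the element strand and 1.03% on the opposite strand, and in 0% of HERVH-int starts on the opposite strand. Those other elements had at least 300 bases, include LTRs as well as internal parts, and were not limited to complete 5′ ends. The HERVH-int starts include elements without counts, so the shares are not of like parts. CNGGG, a context described for cytosines that NSUN2 methylates in RNA and which can overlap TGGTGC but not TATAAA, was rare on the element strand of the LTRs. It occurred in the central 300 bases of 3.63% of LTR7, 1.52% of LTR7Y, 3.62% of LTR7B, 14.2% of LTR7C and 30.6% of HERVH-int elements, whereas 70.0% of the other LTR-class elements held it. On the opposite strand the shares were 91.1%, 98.5%, 94.2%, 92.2% and 85.4%, against 77.5% of the others. Whether the counts used strand is not given in the sources used here, so it is not known from which strand of an element the counted RNA came.

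Counts over the DNA, LINE, LTR and SINE classes ranged from 498145 to 649905 in the WT libraries and from 715023 to 827341 in the KO libraries. The log counts of subfamilies correlated between libraries at 0.767 to 0.791 within groups and at 0.728 to 0.771 between groups. The members held 22558 counts in all, so most single elements rest on few counts. Values are fractional: 25.6% of the 3511 non-zero member values were whole numbers and 44.3% were below 1.

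HERVH and LTR7 together held shares of the repeat counts that overlapped between the groups. The share was 0.616%, 0.671% and 0.262% in WT replicates 1, 2 and 3 and 0.730%, 0.497% and 0.506% in KO replicates 1, 2 and 3. WT replicate 3 was the lowest library, and the ranges overlapped. The means were 0.516% ± 0.222 (SD, n = 3) in WT and 0.578% ± 0.132 (SD, n = 3) in KO, a log2 ratio of 0.16, which was -0.16 without WT replicate 3. As in any bulk sample, fewer cells with the RNA and less RNA per cell cannot be told apart.

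None of the 5 subfamilies passed the test. Counts summed per subfamily were compared with edgeR's quasi-likelihood test over all 573 subfamilies that passed its filter on low counts, and an adjusted p (Benjamini–Hochberg) under 0.05 was a call. By that rule 0 of 5 members were called, where 1.05% of all subfamilies were, and 1 member, LTR7C, had an unadjusted p under 0.05, where 13.8% of all were. The groups overlapped for all 5 members, where 16.9% of all subfamilies had WT and KO values that did not overlap.

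HERVH-int, the internal part, held 69.0% of the member counts. Its level in CPM, counts scaled to a common library size with edgeR's TMM factors, was 3872, 5606 and 1424 in WT replicates 1 to 3 and 4112, 3606 and 4092 in the KO. The KO libraries lay close together and inside the WT range, whose lower end was WT replicate 3. The log2 change from WT to KO was 0.12 ± 0.51 (SE, n = 3 per group, adjusted p = 0.931 by edgeR), with a 95% interval from -1.04 to 1.27. Without WT replicate 3 it was -0.28 ± 0.37 (adjusted p = 0.775), and the direction turned.

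The LTR types varied more than the internal part. LTR7 measured 478, 716 and 207 CPM in WT and 969, 187 and 121 in KO, with the highest and the 2 lowest libraries all in the KO. Its log2 change was -0.13 ± 1.10 (SE, adjusted p = 0.971 by edgeR), and it turned positive when WT replicate 2 (0.40), KO replicate 2 (0.25) or KO replicate 3 (0.30) was left out, and was -1.53 with KO replicate 1 left out. LTR7Y measured 1325, 349.8 and 98.3 in WT and 589, 242 and 808 in KO, with the highest and the lowest library both in WT. Its log2 change was -0.11 ± 1.10 (SE, adjusted p = 0.975 by edgeR) and became 1.32 without WT replicate 1 and 0.28 without KO replicate 2.

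LTR7B measured 191, 254 and 123 CPM in WT and 1241, 710.1 and 28.0 in KO. KO replicates 1 and 2 lay above every WT library, and KO replicate 3 lay below them all. The log2 change was 1.79 ± 1.26 (SE, adjusted p = 0.546 by edgeR). LTR7C measured 149, 41.6 and 1149 in WT and 16.2, 35.0 and 57.3 in KO, so that WT replicate 3 stood far above the other libraries. The log2 change was -3.52 ± 1.40 (SE, unadjusted p = 0.0328, adjusted p = 0.322 by edgeR), with a 95% interval from -6.69 to -0.36. DESeq2's Wald test called LTR7C, with a log2 change of -3.76 ± 1.18 and an adjusted p of 0.0184, where it called 61 of all 573 subfamilies. Without WT replicate 3 the edgeR change was -1.34 ± 0.95 (adjusted p = 0.605).

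**Figure D1:**
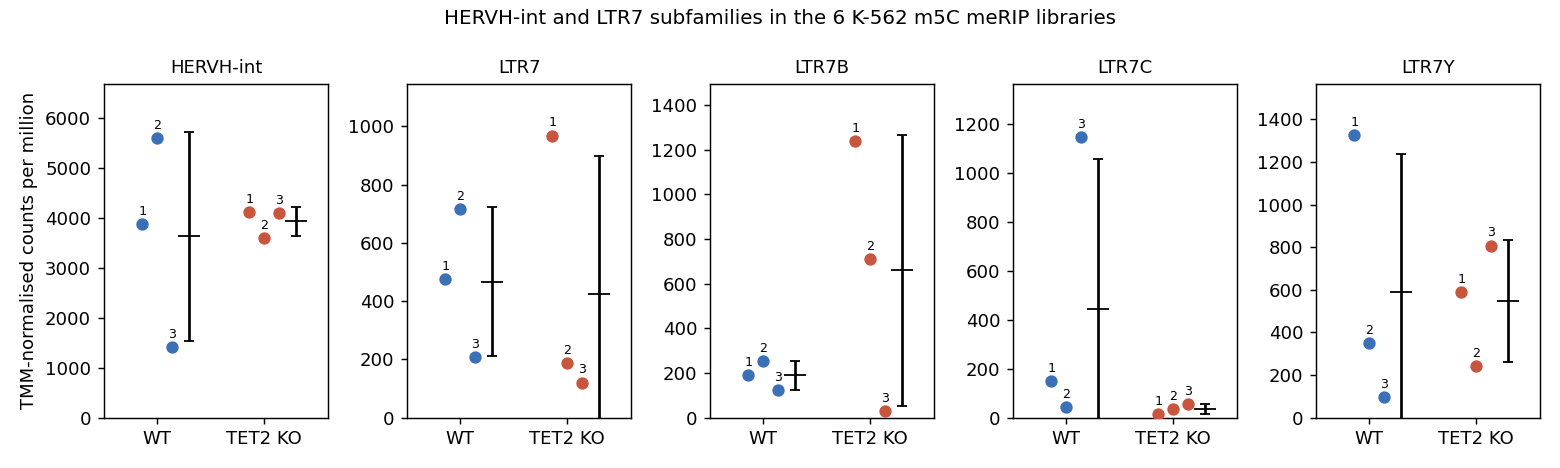
TMM-normalised CPM (y axes, one scale per panel) of the 5 subfamilies in each WT (blue) and TET2 KO (red) library. Digits are replicate numbers, horizontal marks are group means and bars are SD (n = 3), truncated at 0. HERVH-int in the KO lies between 3606 and 4112, inside the WT range of 1424 to 5606, and the LTR7C level of WT replicate 3, 1149, stands above the other 5 libraries.

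The LTR7C value rested largely on one sequence with 2 places in the genome, which was singled out after its values were seen. The elements chrX:2187576-2188047 and chrY:2187576-2188047 lie at the same positions of the region that the X and Y references share, 31459 bases from the nearest annotated gene, DHRSX, and their hg38 sequences are identical. The first had 287 counts and the second 270.5 counts in WT replicate 3, and both were at 0 in the other 5 libraries. All identical copies together held 76.5% of the LTR7C counts. When member elements of at least 10 counts with a copy of over 99% identity were left out, an alternative chosen after seeing the data, the LTR7C change was -1.33 ± 0.95 (adjusted p = 0.549 by edgeR).

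LTR7B rested on copies too. The elements chr16:21871872-21872320 and chr16:21439604-21440052 are identical and lie, on the opposite strand, in introns of NPIPB4 and NPIPB3, of a gene family spread by segmental duplication. Counts at the first were 198 in KO replicate 1 and 228 in KO replicate 2, at the second 275 and 132, and both were at 0 in the other 4 libraries. A further copy at chr16:22498851-22499299, in an intron of NPIPB5, had 125 counts in KO replicate 1, 79.0 in KO replicate 2 and 0.50 in WT replicate 1. These elements therefore stood high in the same 2 KO libraries. Because their reads can be assigned to any copy, which of the chr16 places was the source cannot be told apart. Identical copies held 55.5% of the LTR7B counts, and without near-identical copies the LTR7B change was 0.72 ± 1.16 (adjusted p = 0.790 by edgeR).

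The highest LTR7 element, chr1:224010283-224010651, overlaps with 89.4% of its bases same-strand exons of the lncRNA ENSG00000290989. It had 461.5 counts in KO replicate 1, 3.50 each in WT replicates 2 and 3, and 0 in the others. Its closest relative, chr1:787352-787718, differs by 3 edits and is 99.2% identical. There, KO replicate 1 had 255.5 counts, WT replicate 2 had 3.50 and the other libraries 0. A single KO library thus carried nearly all counts of both. Without near-identical copies the LTR7 change was -1.33 ± 0.98 (adjusted p = 0.549 by edgeR).

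Single elements were compared next, since a sum over a subfamily does not show its single loci. Of 3127 loci that passed the edgeR filter across the 4 classes, 15 were members: 13 HERVH-int, 1 LTR7C and 1 LTR7Y. The other 1763 member elements with counts did not pass it. The adjusted p-values of the 15 by edgeR ranged from 0.767 to 0.995, so that 0 were called, where 0.0959% of all loci were. At an unadjusted p under 0.05 there were 0 as well, where 7.48% of all loci passed. DESeq2's Wald test called 0 of the 15, where it called 174 of all 3127 loci. With a filter of at least 10 counts in all, 287 members were tested by edgeR, of which 0 were called, where 0.00635% of 31500 loci were, and 8 had an unadjusted p under 0.05, where 2.3% of these loci had. Among the 15 loci, the fitted change was above 0 in 10 and below 0 in 5, where 54.1% of all loci were above 0. The median of the 15 was 0.51 beside 0.12 over all loci. However, 5 of the 10 were copies of the same sequence, described next. The near-identical chr8 copies given below were also among the 10, so these loci are not independent.

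Of those 15 loci, 5 were one sequence. They lie on alternate contigs of chromosome 6, for example chr6_GL000250v2_alt:4650563-4656067, and were at least 99.8% identical to it, as was the element on the main chromosome, chr6:33345910-33351416, which did not pass the filter. Over these 6 copies the counts added up to 0, 153.1 and 0 in WT replicates 1 to 3 and to 0, 73.0 and 115.8 in the KO. The main-chromosome copy had 27.8 counts in WT replicate 2 and 0 elsewhere. Libraries of both groups were at 0, and all 5 fitted log2 changes lay between 0.42 and 0.77.

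The most evenly counted of the named loci was the HERVH-int element chr6:67881437-67888887, on the minus strand. It lies in the lncRNA ENSG00000227706, whose exons on the same strand cover 50.4% of it. Its counts were 135, 119.7 and 78.3 in WT replicates 1 to 3 and 197, 155 and 206 in the KO. After TMM normalisation every KO library was above every WT library, the only one of the 15 loci, or 6.67%, where the groups did not overlap, beside 15.2% of all loci. The log2 change was 1.00 ± 1.19 (SE, adjusted p = 0.886 by edgeR). In CPM scaled by the total of the 4 classes, however, the values were 208, 240.4 and 139.8 in WT and 239, 217 and 249 in KO, and the groups overlapped. The choice of scale moves the median change of all loci from 0.12 with TMM to -0.77 with library totals alone.

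Its LTR7C neighbours behaved less evenly. The 3′ LTR, chr6:67880996-67881436, which lies wholly in exons of the same lncRNA, had 40.5, 11.7 and 0 counts in WT, against 3.00, 17.4 and 6.35 in KO, with overlapping groups. Its log2 change of -0.55 ± 1.20 (SE, adjusted p = 0.944 by edgeR) was among the 3 most negative and turned to 0.59 without WT replicate 1. The LTR7C element on the 5′ side, chr6:67889062-67889473, lies more than 100 bases from the internal part, beyond the limit used here for flanking LTRs. Whether it is the 5′ LTR of the same provirus was not tested. It was the only LTR7-type element counted in all 6 libraries, and it was highest in WT replicate 1. Its counts were 46.9, 2.00 and 1.00 in WT, against 5.00, 1.00 and 10.5 in KO.

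The element with the highest mean count was chr9:137843940-137850032, a HERVH-int copy in EHMT1, which encodes a histone H3 lysine methyltransferase. It lies on the strand of the gene and is almost wholly intronic, with 107 bases, or 1.76%, in an annotated exon. Counts were 406, 226 and 1.00 in WT and 217, 211 and 44.6 in KO. Both groups held high and low libraries, and the log2 change was -0.07 ± 1.80 (SE, adjusted p = 0.995 by edgeR). With WT replicate 1 left out it was 0.62, with WT replicate 2 left out 0.13 and with KO replicate 3 left out 0.48.

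The chr22 provirus with LTR7Y on both sides had all 3 of its parts among the named loci, and all overlap same-strand exons of the lncRNA ENSG00000283633. Its internal part, chr22:16611748-16614708, measured 27.8, 10.0 and 18.2 in WT, and 15.1, 11.3 and 5.00 counts in KO, with a log2 change of -0.40 ± 0.61 (SE, adjusted p = 0.913 by edgeR). The groups overlapped after TMM normalisation, but in CPM of the 4 classes the values of 42.8, 20.1 and 32.6 in WT were all above the 18.3, 15.8 and 6.04 in KO. The 5′ LTR, chr22:16611308-16611747, had 361 counts in KO replicate 1, and 7.92, 0 and 0 in WT and 12.4 and 8.40 in KO replicates 2 and 3. At the 3′ LTR, chr22:16614709-16615149, WT replicate 1 had 585 counts, WT replicates 2 and 3 had 0, and the KO libraries had 83.0, 6.85 and 142. The internal part and the 3′ LTR were thus highest in WT replicate 1 and the 5′ LTR in KO replicate 1. The log2 change of the 3′ LTR was -1.04 ± 2.64 (SE, adjusted p = 0.954 by edgeR), the most negative of the 15, and became 5.28 without WT replicate 1 (adjusted p = 0.348).

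The largest positive fitted change was that of the HERVH-int element chr6:16259428-16264479 in the lncRNA ENSG00000282024, whose same-strand exons cover 26.1% of it. Counts were 17.8, 24.9 and 4.00 in WT and 51.2, 8.50 and 97.3 in KO, so that KO replicate 2 lay below 2 WT libraries. The log2 change was 1.71 ± 1.09 (SE, adjusted p = 0.767 by edgeR). The next after the chr6 lncRNA locus was chr8:8169077-8183461, in the lncRNA ENSG00000284606. Its copy chr8:12482202-12496589, in the lncRNA ENSG00000283674, is 99.5% identical and 14388 bases long, against a median of 4859 bases in HERVH-int. The first had 97.9, 9.75 and 0.50 counts in WT, against 80.0, 0.25 and 92.0 in KO, and the second 100.2, 33.8 and 0.25 in WT and 107, 0 and 80.2 in KO. The copies were high and low in the same libraries, with WT replicate 3 and KO replicate 2 low in both. Reads of such similar copies can be assigned to either, so this likeness is not that of independent loci. Their log2 changes were 0.88 ± 2.04 and 0.67 ± 2.08 (SE, adjusted p = 0.945 and 0.958 by edgeR).

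High elements were often high in 1 library. The HERVH-int element chr1:68386440-68391562, 4783 bases from the nearest annotated gene, had 392 counts in KO replicate 2 and at most 2.33 in any other library. On an alternate contig, chr11_KI270829v1_alt:144103-148966 had 365 counts in KO replicate 3, 53.0 in KO replicate 2 and at most 0.40 elsewhere. The identical element chr11:7912602-7917465 had 155 and 24.0 in the same KO libraries and at most 0.33 in the others. These counts lay in KO libraries, whereas the LTR7C sequence shared by X and Y was counted in 1 WT library.

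Many well-counted members had nearly all of their counts in 1 library. Of 282 elements with at least 10 counts, 47.9% had at least 90% of them in 1 library. The share was 40.1% of 217 HERVH-int elements and 73.8% of 65 LTR7-type elements. It was 59.1% in HERV9 and LTR12, a similar ERV1 group, and 56.2% in the remaining ERV1 elements. These shares were described and not tested. The elements concentrated in a given library held between 32.3% and 58.8% of its member counts, with the highest share in WT replicate 2 and the lowest in KO replicate 2.

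Few HERVH-int elements were counted in every library, and these held a large share of the counts. Of 953 elements with counts, 305 were counted in 1 library and 26 in all 6. The 26 made up 2.73% of these elements and 25.6% of the counts. Together they had 1439, 1514 and 407 CPM of the 4 classes in WT and 1014, 797 and 807 in KO. WT replicate 3 was again the lowest and the groups overlapped. Much of this sum came from the chr9 and chr6 elements in EHMT1 and ENSG00000227706. The chr9 element alone had 624, 454 and 1.79 in WT and 264, 296 and 53.9 in KO. The chr6 element had 208, 240 and 140 in WT and 239, 217 and 249 in KO. Among these 26, chr15:88547719-88561809 and chr3:38076740-38083174 were tested as well. The first had 39.9, 28.6 and 19.6 counts in WT, against 19.3, 12.8 and 32.4 in KO, and a log2 change of -0.22 ± 0.66 (SE, adjusted p = 0.958 by edgeR). The second, in an intron of DLEC1 on the opposite strand, had 59.98, 5.80 and 25.6 counts in WT, against 91.4, 16.3 and 7.08 in KO, and a log2 change of 0.68 ± 1.19 (SE, adjusted p = 0.928 by edgeR). The groups overlapped at both.

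**Figure D2:**
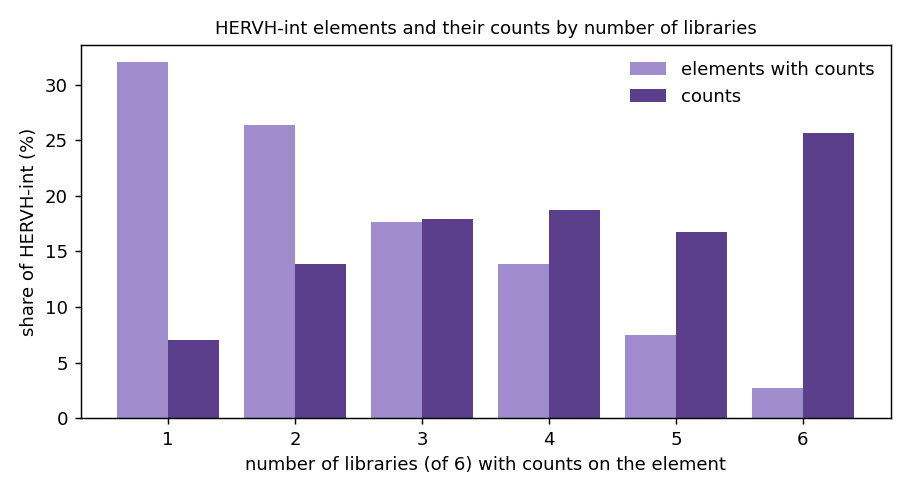
Share of the 953 HERVH-int elements with counts (light bars) and share of HERVH-int counts (dark bars), in percent, by the number of libraries in which an element was counted. Elements counted in 1 library are 32.0% of the elements and hold 7.05% of the counts, and those counted in all 6 are 2.73% and hold 25.6%.

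The share of elements that were counted differed by type and by place in a provirus. Counts were found on 68.5% of HERVH-int, 48.6% of LTR7Y, 23.0% of LTR7, 14.8% of LTR7B and 6.62% of LTR7C elements. Over all members the share was 34.1%, beside 31.9% in HERV9 and LTR12, 6.85% in other ERV1 and 4.54% in the rest of the LTR class. Element length differs between these sets, since HERVH-int has a median of 4859 bases and the LTR7 types medians of 410 to 436. Per kb of annotated sequence the members held 2.95 counts, against 1.64 in HERV9 and LTR12 and 1.52 in other ERV1. LTR7Y had 26.3 counts per kb, of which a single element, the chr22 3′ LTR, gave 33.3%.

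Among internal parts, those between LTR7Y elements were counted most often. Counts were found on 93.6% of the 78 HERVH-int elements with LTR7Y on both sides, 81.1% of the 763 with LTR7, 71.3% of the 115 with LTR7B and 50.0% of the 20 with LTR7C. The median length was 4740 bases between LTR7Y, 4957 between LTR7, 5009 between LTR7B and 6048 between LTR7C. Across these classes the median length rose as the share fell. Grouped by length alone, however, the shortest HERVH-int elements were counted least often. Counts were found on 27.6% of the 279 elements in the shortest class, whose median length was 601 bases. The share was 78.8% of 979 in the middle class (median 4903 bases) and 78.4% of 134 in the longest (median 7410 bases). Whether length bears on being counted was not tested. With an LTR on 1 side only the share was 47.0%, and with none within 100 bases it was 10.8% of 83 elements, whose median length was 131 bases. LTR7Y elements beside an internal part were counted in 54.2% of 179 cases, and those away from one in 35.5% of 76. For LTR7 the shares were 24.0% of 1710 and 20.6% of 699. These shares are descriptions with no test, as copies of a family share sequence and reads.

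By library, the internal parts between LTR7Y elements had 223, 988 and 185 CPM of the 4 classes in WT and 214, 114 and 86.0 in KO. WT replicate 2 was far above the rest, and WT replicate 3 lay below KO replicate 1, so the groups overlapped.

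**Figure D3:**
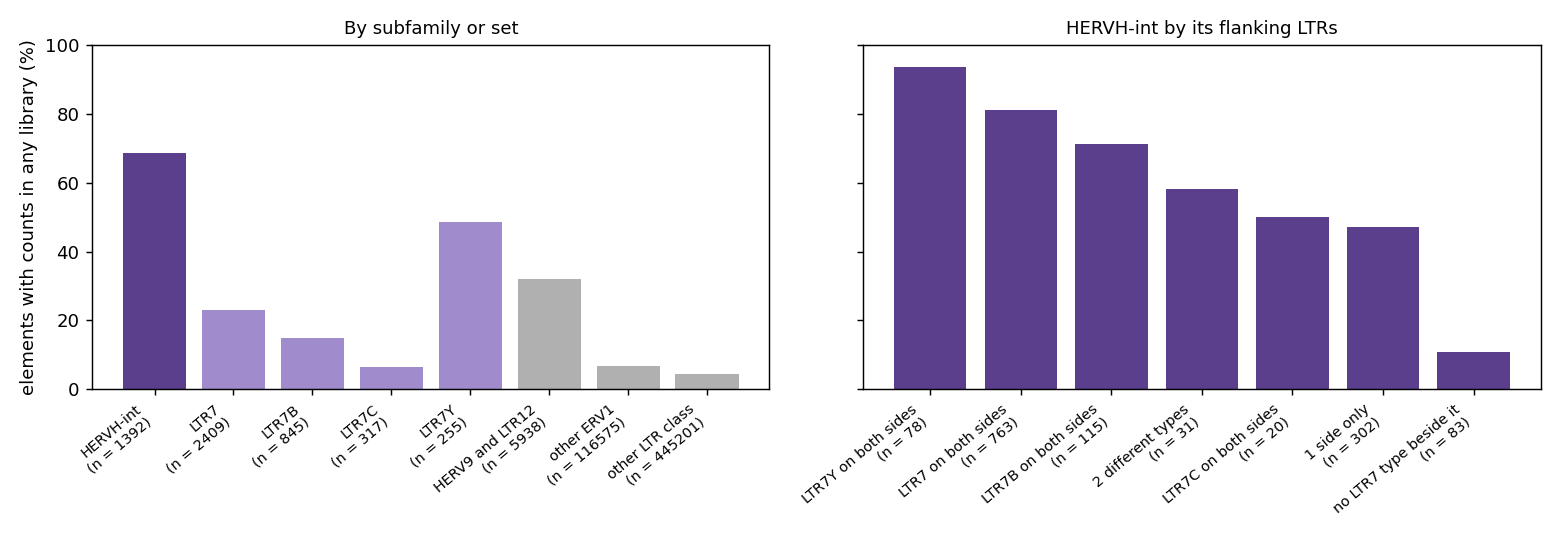
Share of elements with counts in any of the 6 libraries (y axis, percent) for each member subfamily beside other LTR-class sets (left) and for HERVH-int by the LTR7 type beside it within 100 bases on the same strand (right), with the number of elements under each bar. HERVH-int is at 68.5% and LTR7Y at 48.6%, and internal parts between LTR7Y elements reach 93.6%.

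Counts also differed by place in genes. The 116 HERVH-int elements that overlap a same-strand exon in GENCODE 44, by however few bases, held 6.54 counts per kb, and 82.8% of them were counted. Without the 2 highest, which are the chr9 and chr6 elements in EHMT1 and ENSG00000227706, the value was 3.51 counts per kb. The 50 elements on sequences without annotation, such as alternate contigs, held 6.71 counts per kb, with 78.0% counted, and 4.77 without the 2 highest. The 752 between genes held 1.90 counts per kb with 68.4% counted, and 1.70 without the 2 highest. The 96 in introns on the strand of the gene held 1.50 with 60.4% counted. On the opposite strand, the 44 elements that overlap an exon held 1.54 counts per kb with 86.4% counted. The 334 in introns on the opposite strand held 1.98 with 62.3% counted. These shares were not tested either.

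Loci known for HERVH transcripts in pluripotent cells carried few counts, apart from HHLA1. Of all member elements 34.1% were counted, and 897 of these 1778 in 1 library only. The counted internal parts at these genes overlap same-strand exons, however. HERVH-int elements of that class were counted in 82.8% of cases. They held 36.2 counts each on average over the 6 libraries, and 19.3 without the 2 highest. Whether the listed loci differ from that class was not tested. ESRG, an embryonic stem cell lncRNA made largely of HERVH sequence, had 1 of 3 elements counted, with 0.33 counts in WT replicate 1 and 1.00 in KO replicate 3. LINC-ROR, a lncRNA first described in reprogrammed cells, had 1.50 counts in KO replicate 2 alone. At HHLA1, named for its HERVH LTR, the internal part chr8:132080691-132085549 had 84.1 counts in KO replicate 3, 1.90 in KO replicate 1, and 0.50 in KO replicate 2 and in WT replicate 1. A single KO library was high at HHLA1. Elements in or near ABHD12B and CALB1 had at most 1.00 count in a library, the 1 element at GSDMB had 0, and no member lay within 5000 bases of LINC01108 or OC90. None of these loci passed the filter of the test.

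Relatives gave no clearer picture. Of the 8 HERV9 and LTR12 subfamilies tested, 0 were called and 1 had an unadjusted p under 0.05, with a median log2 change of -0.51. Of 107 other ERV1 subfamilies, 0 were called by edgeR and 19 had an unadjusted p under 0.05, with a median of 0.21, beside a median of -0.11 over the 5 HERVH and LTR7 subfamilies and 0.03 over all 573.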

How the data were processed

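Trimmed reads (Trimmomatic 0.39) were aligned by the authors with HISAT2 2.1.0 to hg38, its transcriptome and m5C spike-ins, deduplicated with Picard and counted over repeat elements with featureCounts. The deposited values are estimated counts per element and library, which the authors left unnormalised. They are fractional, and the options behind this are not given in the sources used here. The mouse table was not used. Members and lists were chosen with earlier results of these data known.

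Counts were taken for the 4 classes, summed per subfamily or kept per element, and rounded. KO was compared with WT with edgeR 4.0.16 (filterByExpr, TMM, prior count 2, two-sided quasi-likelihood test, Benjamini–Hochberg adjustment) in R 4.3.3. SE is the absolute log2 change over the square root of F. DESeq2 1.42.0 served for alternatives, and the fits were tested on simulated data. Counting error apart, 3 libraries per group limit precision. Reads without molecular identifiers are not independent molecules. Named are all member subfamilies, every called member locus, the 10 loci with the highest mean count, up to 3 tested loci with the largest rise and 3 with the largest fall, and counted elements within 5000 bases of 8 listed genes. Others were named after their values were seen. These are the LTR7C element on the 5′ side on chr6 and the loci chr15:88547719-88561809 and chr3:38076740-38083174. The chr6 alternate-contig copies, the copies of named elements and the element shared by X and Y were also named in this way. Sequences were read from hg38 with pysam 0.24.0 and compared with edlib, and those of other elements are not reported here. GENCODE 44 was used, which is not the release the authors named.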

Additional observations from a re-analysis of the deposited data

How the results depend on the processing

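No alternative that used edgeR called a member subfamily or locus, including leaving out each library in turn (0 to 0 members called at both levels). DESeq2's Wald test called 1 subfamily, LTR7C (log2 change -3.76), and it called 61 subfamilies and 174 loci over the whole table, against 6 and 3 with edgeR. Numbers of called subfamilies ranged from 0 to 7 over the other settings. Some directions turned. With elements counted in at least 2 libraries only, LTR7 became 0.74 and LTR7Y 0.11, and without the highest element of each member LTR7Y became 0.60 and LTR7 -0.89. Replicate numbers did not pair the libraries (same-number correlations of -0.05, 0.04 and -0.09), and with a replicate block 0 members were called, LTR7Y became 0.28, the chr9 element in EHMT1 1.00 and the chr22 3′ LTR 2.25. Library totals alone, which lower the median of all loci from 0.12 to -0.77, gave -0.21 at the chr8:12482202-12496589 element, and lowered the chr9 element to -1.07 and the chr22 internal part to -1.28. Over the 6 fits that left out 1 library each, log2 changes ranged from -0.28 to 0.65 for HERVH-int, -1.53 to 0.40 for LTR7, 1.03 to 2.35 for LTR7B, -4.10 to -1.34 for LTR7C and -0.62 to 1.32 for LTR7Y. They ranged from -0.64 to 0.62 for the chr9 element, -1.62 to 5.28 for the chr22 3′ LTR and -1.40 to 0.59 for the chr6 3′ LTR, and the summed share ratio from -0.16 to 0.40. Without 3 FordPrefect elements the summed share ratio was 0.41, as it was without the 10 highest elements. The cause of these shifts was not tested. Member loci that did not pass the filter on low counts have no test at this depth.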
